A study of Mus musculus with 9 samples.

Results

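The nuclear-encoded subunits of respiratory chain complexes I to IV were followed in RNA from the mouse substantia nigra, as 59 genes chosen by symbol from the 55335 genes of the deposited table. The set held 36 genes of complex I (Nduf symbols), 4 of complex II (Sdha to Sdhd), 9 of complex III (Uqcr symbols and Cyc1) and 10 of complex IV (Cox symbols). Each of the 59 had a mean of at least 0.5 FPKM (fragments per kilobase of transcript, scaled to the depth of the library) and was tested, among 15997 genes that reached this level.

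The respiratory chain sits in the inner mitochondrial membrane and passes electrons from NADH (through complex I) and succinate (through complex II) to ubiquinone, then through complex III and cytochrome c to complex IV, which reduces oxygen. Complexes I, III and IV pump protons and so power ATP synthase, and they mix subunits of the mitochondrial genome with subunits made in the cytosol from nuclear genes, whereas complex II is entirely nuclear-encoded. MPTP is converted in glia to MPP+, which the dopamine transporter carries into dopaminergic neurons, where it blocks complex I. The substantia nigra holds the dopaminergic neurons that are lost in Parkinson disease, beside many other neurons and glia.

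The 9 libraries fell into 3 groups of 3. Vehicle mice were injected with saline 2 times a week for 5 weeks, MPTP mice were given MPTP intraperitoneally at 20 mg/kg on that schedule, and the third group had the same MPTP injections together with 2 months of voluntary running on a wheel, begun after the first injection. All groups thus shared repeated injections, both MPTP groups shared the toxin, and no group of runners without MPTP was analysed here. The sources used here do not give strain, age, sex or the interval between the last injection and sampling. The labels mention 3 mice per group without tying a library to a mouse, so p-values measure only the spread between these libraries, which may be technical.

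The FPKM of a library summed to 318400 to 319400 in the vehicle group, 326600 to 347500 in the MPTP group and 331100 to 344000 in the running group, and genes of the mitochondrial genome took 29.8% to 32.0% of it. Depth, estimated from the spacing of low FPKM values and valid only if these were scaled to counted fragments, was 22400000 to 27200000 fragments per library. Markers of dopaminergic neurons were uneven, and 3 of 11 listed were under 1 FPKM on average. Against vehicle, 6 of 11 were higher for MPTP and 5 of 11 for running. Their sums overlapped, at 54.0 to 86.3 FPKM in vehicle, 45.5 to 97.2 FPKM in MPTP and 51.5 to 85.0 FPKM in running libraries. Aldh1a1 was the highest, at 22.1 to 46.8 FPKM. Th, the enzyme that makes the precursor of dopamine, ranged from 1.64 to 15.6 FPKM over the libraries, Slc6a3, the dopamine transporter, from listed at 0 to 14.4 FPKM, and Pitx3 reached at most 0.187 FPKM. The values below therefore describe the dissected tissue, in which fewer cells of a type and less RNA per cell cannot be told apart.

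Transcripts of the respiratory chain were on average slightly higher in both MPTP groups than in the vehicle group, and no single gene passed the test. The members' medians of MPTP replicates 1 and 3 lay within the vehicle range, and only MPTP replicate 2 lay above it. Complex IV had the largest difference, but for MPTP this lead nearly vanished after quantile normalization. The median log2 fold change of the 59 genes was 0.14 for MPTP against vehicle, 0.067 for running against MPTP and 0.22 for running against vehicle, beside -0.0059, -0.012 and -0.022 over all genes tested. These correspond to median differences of 10.4%, 4.77% and 16.7% on the scale of log2(FPKM + 1). The fold changes of single genes had standard errors of 0.075 to 0.21, with a median of 0.12. The comparisons of MPTP with vehicle and of running with MPTP share the MPTP libraries, and the third is their sum. The heat map of all members by library shows where the differences lay.

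**Figure D1:**
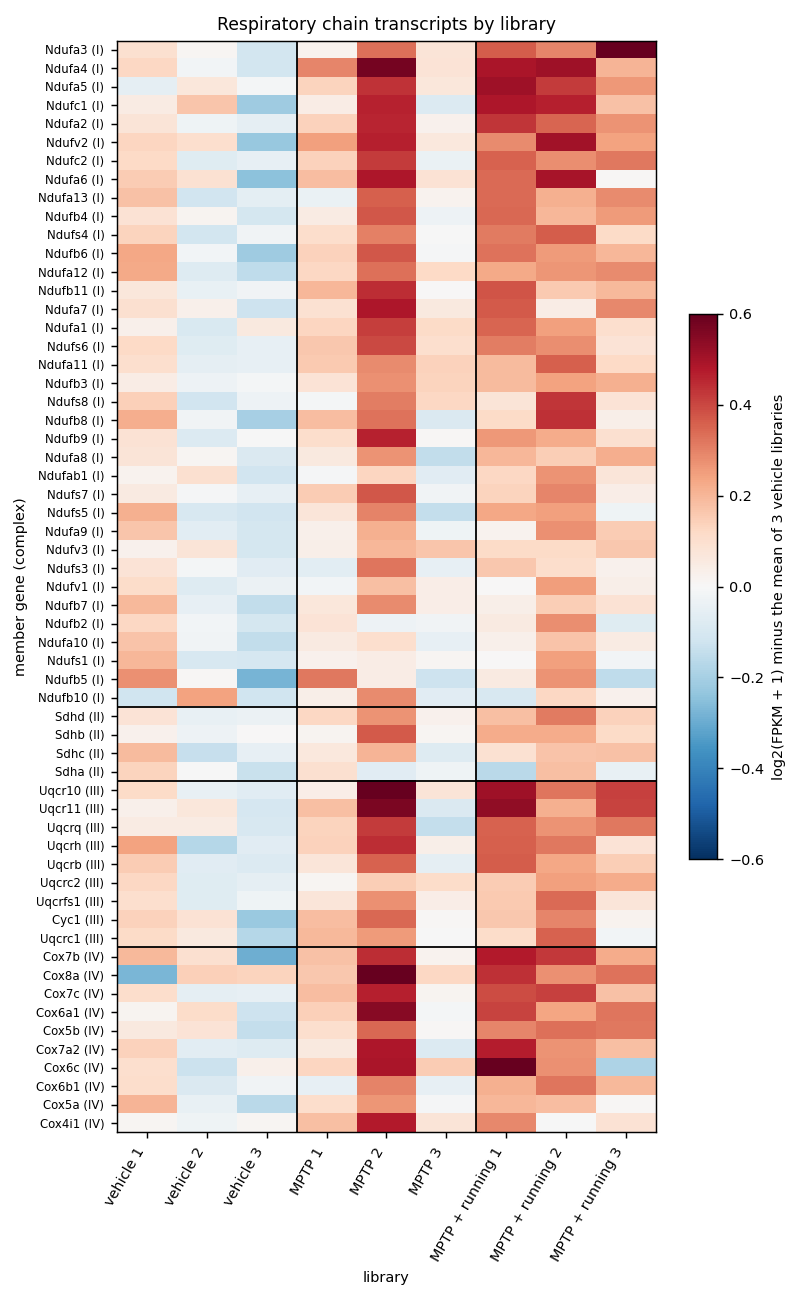
Each row is 1 of the 59 genes (complex in brackets), each column 1 of the 9 libraries, and the color gives log2(FPKM + 1) minus the mean of the 3 vehicle libraries, limited to the range from -0.6 to 0.6. MPTP replicate 2 and the running libraries are red over most rows, while vehicle replicate 3 is blue and MPTP replicate 3 is pale.

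Against vehicle, all 59 genes were higher in the MPTP group, and none passed the limma test at a Benjamini-Hochberg adjusted p of 0.05 (smallest adjusted p 0.9915). Of all genes tested, 0.0125% passed. No member reached an unadjusted p under 0.05 with a higher level, against 2.61% of all genes. In 6 members (Ndufa1, Ndufa5, Ndufa11, Ndufb3, Cox4i1 and Cox6c) every MPTP library lay above every vehicle library, which held for 5.2% of all genes tested. The FPKM sums lay apart in the same way, at 318400 to 319400 in vehicle and 326600 to 347500 in MPTP libraries. No such count is given here for rescaled libraries. The direction depended in part on scaling and on 1 library: 48 of 59 were higher, with a median of 0.070, once every library was rescaled to the same FPKM sum, and 48 of 59, with a median of 0.057, without MPTP replicate 2.

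Running against MPTP gave smaller differences, with 50 members higher and 9 lower. None passed the adjusted test (smallest adjusted p 0.9999 by limma, against 0.0% of all genes passing). Ndufa3 alone had an unadjusted p under 0.05, where 1.11% of all genes did so with a higher level. Uqcrc2 was the 1 member whose running libraries all lay above the MPTP libraries, as did 2.66% of all genes. The 9 lower members were Ndufb5, Ndufb7, Ndufb10, Ndufs7, Ndufv3, Sdha, Uqcrc1, Cyc1 and Cox4i1. The median was 0.15 without MPTP replicate 2 and 0.010 (33 of 59 higher) without MPTP replicate 3, so the size of this comparison rested on which MPTP libraries were kept.

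Running against vehicle gave the widest separation, with 58 of 59 members higher and Sdha at -0.0079 on the log2 scale. None passed the adjusted limma test (smallest adjusted p 0.7532, with 0.0% of all genes passing). At an unadjusted p under 0.05, 20 members were higher, against 3.12% of all genes tested. With every library rescaled to the same FPKM sum, 6 members and 1360 of all 15997 genes were at that p, in either direction. With the same sum outside the mitochondrial genome these counts were 8 and 1215, and after quantile normalization 11 and 974. Leaving out 1 library gave 3 members (without vehicle replicate 3) to 31 (without MPTP replicate 2, beside 1477 of all genes). In 30 members, 17 of complex I, 2 of complex II, 4 of complex III and 7 of complex IV, all running libraries lay above all vehicle libraries, against 6.38% of all genes. Members followed the same libraries closely, as described further on, so these counts are not counts of independent genes. Without vehicle replicate 1 there were 49 such members, against 11.6% of all genes. The FPKM sums of these groups did not overlap either, at 318400 to 319400 in vehicle and 331100 to 344000 in running libraries. No such count is given here with every library rescaled to the same FPKM sum, so the part of library scale in it was not tested.

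The core of complex I carries the flavin and the iron-sulfur clusters, and its 6 nuclear-encoded members here had a median log2 fold change of 0.10 for MPTP against vehicle and 0.13 for running against vehicle. The 29 supernumerary members, which surround the core and stabilize it, had medians of 0.14 and 0.22. This division and the placing of Ndufa4 outside both were made after the values were seen. Total exon length was 8086 bases for Ndufs1, 2634 for Ndufv1, 2178 for Ndufs3, 2147 for Ndufv2, 1718 for Ndufs7 and 1291 for Ndufs8, beside a members' median of 1495. Fold change fell with exon length among the members, as described further on, and the part of length in this division was not tested. Ndufs1, the large iron-sulfur subunit at the tip of the matrix arm, was at 22.5, 18.2 and 18.1 FPKM in vehicle replicates 1, 2 and 3, at 19.9, 20.1 and 19.7 FPKM in the MPTP replicates and at 19.6, 23.3 and 19.3 FPKM in the running replicates. Its groups overlapped, and vehicle replicate 1 was exceeded by running replicate 2 alone. Ndufv1, which binds NADH and the flavin, had means of 27.9 ± 2.01, 29.3 ± 2.12 and 29.9 ± 2.99 FPKM in the vehicle, MPTP and running groups (SD, n = 3 each). Ndufs7 and Ndufs8, which carry clusters near the ubiquinone site, had group means of 22.6, 25.6 and 25.3 FPKM and of 44.5, 49.2 and 51.4 FPKM. Ndufs3, of the same module, had group means of 30.7, 32.5 and 32.9 FPKM. The groups overlapped for all of these core genes in every comparison. The exception among the core genes was Ndufv2, an iron-sulfur subunit beside Ndufv1, at 44.2, 43.3 and 34.4 FPKM in vehicle, 48.1, 56.2 and 42.2 FPKM in MPTP and 49.4, 57.8 and 47.9 FPKM in running libraries. All its running values lay above its vehicle values (log2 fold change 0.34, SE 0.14, limma unadjusted p 0.036, adjusted p 0.7532).

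Ndufa3, a small supernumerary subunit of the membrane arm (ENSMUSG00000035674, GRCm38 chr7:3617373-3620327), had the smallest p of any member. It was at 32.7, 30.7 and 28.2 FPKM in the vehicle replicates, at 31.0, 38.6 and 32.2 FPKM in the MPTP replicates and at 39.5, 37.5 and 47.2 FPKM in the running replicates. The running libraries lay above all vehicle libraries and overlapped the MPTP libraries. The log2 fold change was 0.42 (SE 0.12, limma unadjusted p 0.0065, adjusted p 0.7532) for running against vehicle and 0.28 (unadjusted p 0.044, adjusted p 0.9999) for running against MPTP. Ndufa5, a supernumerary subunit of the matrix arm (ENSMUSG00000023089, GRCm38 chr6:24518666-24528013), was at 33.3, 36.3 and 34.2 FPKM in vehicle, 38.0, 47.0 and 36.3 FPKM in MPTP and 49.7, 46.6 and 41.6 FPKM in running libraries. Its MPTP and running values all lay above its vehicle values, the nearest pair being vehicle replicate 2 (36.26 FPKM) and MPTP replicate 3 (36.32 FPKM). For running against vehicle its log2 fold change was 0.40 (SE 0.11, limma unadjusted p 0.0069, adjusted p 0.7532).

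Ndufa4 (ENSMUSG00000029632, GRCm38 chr6:11900292-11907497) is grouped here by its symbol, although its product is known as a subunit of complex IV. It had the largest log2 fold change of any member for MPTP against vehicle, 0.32 (SE 0.14, limma unadjusted p 0.053, adjusted p 0.9915). Its values were 69.8, 63.2 and 59.1 FPKM in vehicle, 78.4, 95.6 and 67.7 FPKM in MPTP and 90.0, 91.4 and 73.8 FPKM in running libraries. The lowest MPTP library lay below the highest vehicle library, and the running libraries lay above all vehicle libraries. Counted with complex IV, it left the medians of that complex at 0.22, 0.096 and 0.31 over the 3 comparisons.

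Among the other supernumerary subunits of complex I, Ndufb3, of the far end of the membrane arm, had tight groups at 70.8, 67.3 and 68.0 FPKM in vehicle, 72.9, 83.1 and 75.4 FPKM in MPTP and 78.6, 81.3 and 79.8 FPKM in running libraries. Both MPTP groups lay above the vehicle group, by 0.16 and 0.22 on the log2 scale (SE 0.08). Ndufa1, the product of an X-linked gene, and Ndufa11, both of the membrane arm, had the same arrangement, with log2 fold changes of 0.22 and 0.19 for MPTP against vehicle. Ndufa2 was 0.35 and Ndufc2 0.32 higher in running than in vehicle libraries, without overlap. Ndufs6, which binds zinc in the matrix arm, was 0.22 higher in MPTP and in running than in vehicle libraries on the log2 scale, with overlap. Ndufc1 and Ndufa13 were 0.23 and 0.17 higher in running than in MPTP libraries, and each of these groups overlapped. At the other end, Ndufb2, Ndufab1 and Ndufa10 had log2 fold changes of 0.012, 0.017 and 0.035 for MPTP against vehicle. Ndufab1 is the mitochondrial acyl carrier protein and had the lowest mean of complex I (5.82 FPKM), while Ndufb9 had the highest (86.0 FPKM). None of these genes passed the adjusted test in any comparison.

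**Figure D2:**
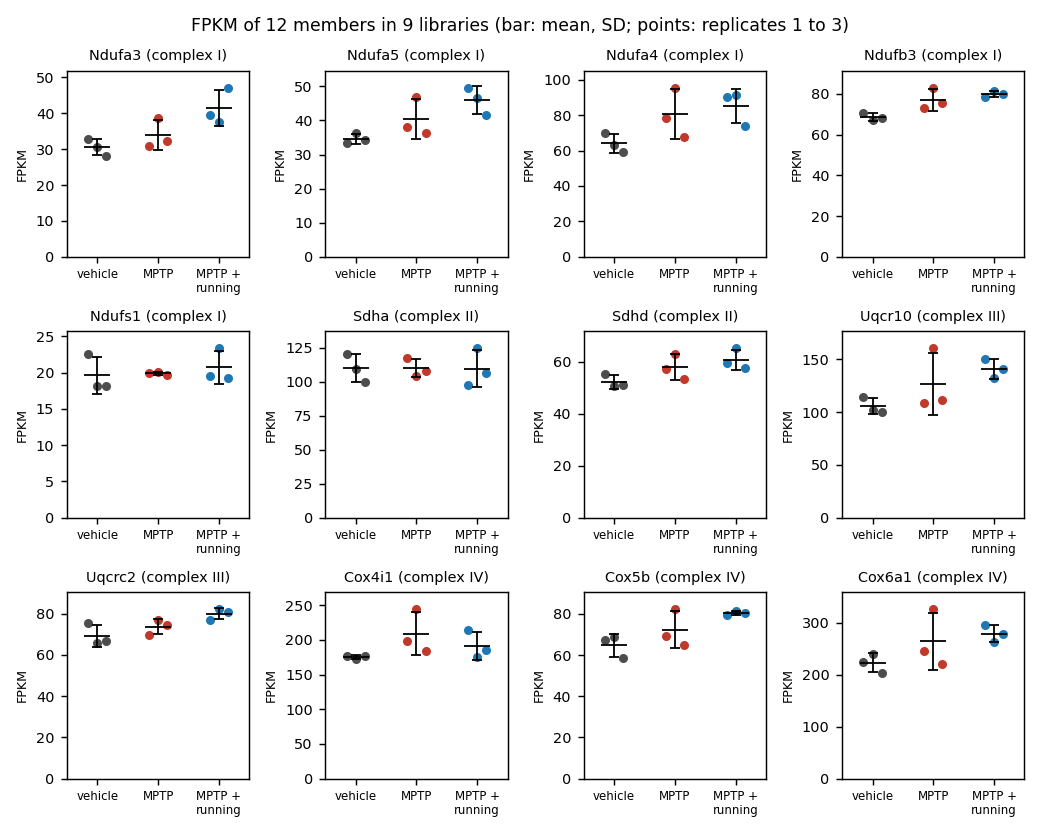
FPKM of 12 members in each of the 9 libraries (points, replicates 1 to 3 from left to right within a group), with the mean and SD of 3 libraries per group. Ndufa3, Ndufa5, Uqcr10 and Cox5b are higher in all running than in all vehicle libraries, Sdha and Ndufs1 overlap between all groups, and MPTP replicate 2 is the highest MPTP library in 11 of the 12 panels, Sdha being the exception.

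Complex II oxidizes succinate and links the citric acid cycle to the chain. Its catalytic flavoprotein Sdha (ENSMUSG00000021577, GRCm38 chr13:74322254-74350280) stood apart from the other members. Its values were 120, 109 and 99.8 FPKM in vehicle, 117, 104 and 108 FPKM in MPTP and 97.8, 124 and 106 FPKM in running libraries. The groups overlapped throughout, with log2 fold changes of 0.0014, -0.0093 and -0.0079 (SE 0.11) over the 3 comparisons. Its transcript was the most abundant of the complex, at a mean of 109.7 FPKM. The iron-sulfur subunit Sdhb was at 39.6, 38.1 and 39.0 FPKM in vehicle, 39.3, 50.5 and 39.2 FPKM in MPTP and 45.6, 45.6 and 42.2 FPKM in running libraries. Only MPTP replicate 2 exceeded the vehicle range of Sdhb within the MPTP group, whereas all running libraries did. Sdhc and Sdhd anchor the complex in the membrane. Sdhd was at 55.3, 50.6 and 50.9 FPKM in vehicle, 57.1, 63.1 and 53.3 FPKM in MPTP and 59.4, 65.0 and 57.7 FPKM in running libraries, so that running and vehicle libraries did not overlap (log2 fold change 0.21, SE 0.09, limma unadjusted p 0.044, adjusted p 0.7532). Sdhc, the lowest of the complex at a mean of 23.5 FPKM, overlapped in all comparisons.

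Complex III passes electrons from ubiquinol to cytochrome c through the Rieske protein Uqcrfs1 and cytochrome c1, Cyc1. These catalytic subunits had group means of 63.5, 69.7 and 72.7 FPKM and of 40.5, 45.9 and 45.2 FPKM in the vehicle, MPTP and running groups, with overlap in each comparison. The core proteins, which face the matrix, differed from each other. Uqcrc1 had group means of 47.2, 52.5 and 52.5 FPKM with overlap. Uqcrc2 (ENSMUSG00000030884, GRCm38 chr7:120635176-120659524) was at 75.4, 65.7 and 66.7 FPKM in vehicle, 69.6, 76.8 and 74.7 FPKM in MPTP and 76.9, 82.1 and 80.8 FPKM in running libraries. All running values of Uqcrc2 lay above all others, by a narrow margin over MPTP replicate 2. The log2 fold change was 0.12 against MPTP (SE 0.08, limma unadjusted p 0.195, adjusted p 0.9999) and 0.21 against vehicle (unadjusted p 0.035, adjusted p 0.7532).

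The small subunits of complex III had its largest differences. Uqcr10 (ENSMUSG00000059534, GRCm38 chr11:4701973-4704342) was at 114, 102 and 100.4 FPKM in vehicle, 108, 160.3 and 111 FPKM in MPTP and 150.3, 132 and 141 FPKM in running libraries. Within the MPTP group, replicate 2 was far above the others, which lay inside the vehicle range, while all running libraries lay above vehicle (log2 fold change 0.41, SE 0.15, limma unadjusted p 0.022, adjusted p 0.7532). Uqcr11 was at 62.8, 64.5 and 57.1 FPKM in vehicle, 69.8, 91.4 and 57.8 FPKM in MPTP and 89.3, 71.3 and 81.7 FPKM in running libraries, again with MPTP replicate 2 highest and with running above vehicle. Uqcrq, the lowest of the complex at a mean of 37.7 FPKM, was 0.31 higher in running than in vehicle libraries on the log2 scale, without overlap. Uqcrh, the hinge protein that contacts cytochrome c1 and the highest of the complex at a mean of 129.3 FPKM, was 0.21 and 0.25 higher in the MPTP and running groups than in vehicle, with overlap.

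Complex IV had the largest median of the 4 complexes in both comparisons with vehicle, 0.22 for MPTP and 0.31 for running, and all 10 members were higher in both. Without MPTP replicate 2 the median for MPTP was 0.081, beside 0.054 for complex I and 0.058 for complex III. After quantile normalization it was 0.13, beside 0.13 for complex I and 0.12 for complex III, and that for running was 0.21, beside 0.15 and 0.13. Cox4i1, the ubiquitous isoform of the subunit through which ATP slows the enzyme (ENSMUSG00000031818, GRCm38 chr8:120668222-120674207), was at 177, 172 and 177 FPKM in vehicle, 199, 244 and 185 FPKM in MPTP and 214, 175 and 186 FPKM in running libraries. Its MPTP libraries lay above vehicle without overlap (log2 fold change 0.24, SE 0.12, limma unadjusted p 0.071, adjusted p 0.9915), and running replicate 2 lay within the vehicle range. It had the lowest log2 fold change of all members for running against MPTP, -0.12 (limma unadjusted p 0.34, adjusted p 0.9999). Cox5b, which binds zinc, was at 67.4, 68.6 and 58.5 FPKM in vehicle, 69.4, 82.2 and 65.0 FPKM in MPTP and 79.5, 81.4 and 80.6 FPKM in running libraries. The running values of Cox5b lay within 2 FPKM of each other and above all vehicle values (log2 fold change 0.31, SE 0.10, limma unadjusted p 0.016, adjusted p 0.7532).

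Cox6a1, the isoform found outside muscle, had the highest mean of all members, 255 FPKM. It was at 225, 240 and 204 FPKM in vehicle, 246, 326 and 220 FPKM in MPTP and 295, 262 and 278 FPKM in running libraries, so that running and vehicle did not overlap (log2 fold change 0.32, SE 0.14, limma unadjusted p 0.051, adjusted p 0.7532). Cox8a, a small subunit that is needed for assembly, was at 152, 204 and 202 FPKM in vehicle, 206, 281 and 201 FPKM in MPTP and 250.4, 224 and 231 FPKM in running libraries. Unlike most members, Cox8a was lowest in vehicle replicate 1. Cox7c and Cox7b were 0.33 and 0.38 higher in running than in vehicle libraries on the log2 scale, and Cox6b1 0.24, each without overlap. Cox6c was the most variable of the complex, at 33.9, 28.8 and 32.2 FPKM in vehicle, 34.6, 44.7 and 35.2 FPKM in MPTP and 51.9, 38.4 and 27.6 FPKM in running libraries. Its running libraries thus held both its highest and its lowest value. Cox5a, the lowest of the complex at a mean of 30.9 FPKM, had group means of 29.1, 31.7 and 31.9 FPKM with overlap.

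**Figure D3:**
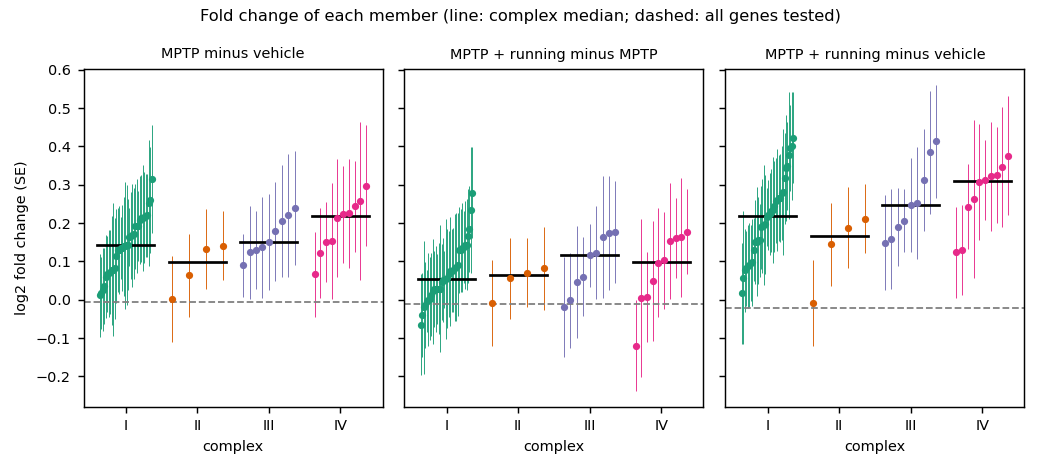
Log2 fold change (points, with SE) of each member in 3 comparisons, by complex, with the complex median as a black line and the median of all genes tested as a dashed line. Complex IV has the highest median against vehicle (0.22 for MPTP and 0.31 for running), complex II the lowest (0.098 and 0.17), and the points of the complexes overlap in each panel.

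The complexes kept the same order of mean level in every library, with complex IV highest, then III, II and I. The distances between them varied, most for complexes II and IV. The mean log2(FPKM + 1) of complex IV lay above that of the other members by 1.33 to 1.40 in vehicle, 1.39 to 1.497 in MPTP and 1.37 to 1.54 in running libraries. For complex III this difference was 0.68 to 0.70, 0.67 to 0.73 and 0.70 to 0.74. That of complex II was 0.16 to 0.24 in vehicle, 0.044 to 0.17 in MPTP and 0.019 to 0.15 in running libraries, so its running and vehicle values did not overlap. The median log2 fold changes of the complexes for MPTP against vehicle were 0.14, 0.098, 0.15 and 0.22 for complexes I to IV, and 0.22, 0.17, 0.25 and 0.31 for running against vehicle. Running against MPTP gave 0.055, 0.063, 0.12 and 0.0995, and the last of these was -0.012 without MPTP replicate 3. In complex II, Sdha, Sdhc and Sdhb had total exon lengths of 4126, 3250 and 2239 bases and Sdhd 1231, beside a members' median of 1495. Differences between complexes, and the part of exon length in them, were not tested.

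Single libraries carried much of the pattern. MPTP replicate 2 was the highest of the MPTP libraries for 56 of 59 members and the highest of all 9 libraries for 34, whereas MPTP replicate 3 was the lowest of its group for 46. Relative to the mean of the vehicle libraries, the members' median was 0.11, 0.34 and 0.0070 in MPTP replicates 1, 2 and 3, and 0.26, 0.27 and 0.15 in the running replicates. The vehicle replicates spread from 0.11 (replicate 1, the highest vehicle library for 48 members) through -0.025 to -0.088. MPTP replicate 1 was thus no higher than vehicle replicate 1, MPTP replicate 3 lay within the vehicle range, and all running libraries lay above all vehicle libraries. As a share of the FPKM outside the mitochondrial genome, the members took 1.48% ± 0.071 in vehicle, 1.59% ± 0.16 in MPTP and 1.67% ± 0.047 in running libraries (SD, n = 3 each). The lowest running share, 1.61%, lay above the highest vehicle share, 1.55%, and the MPTP shares, 1.47% to 1.77%, reached across both.

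**Figure D4:**
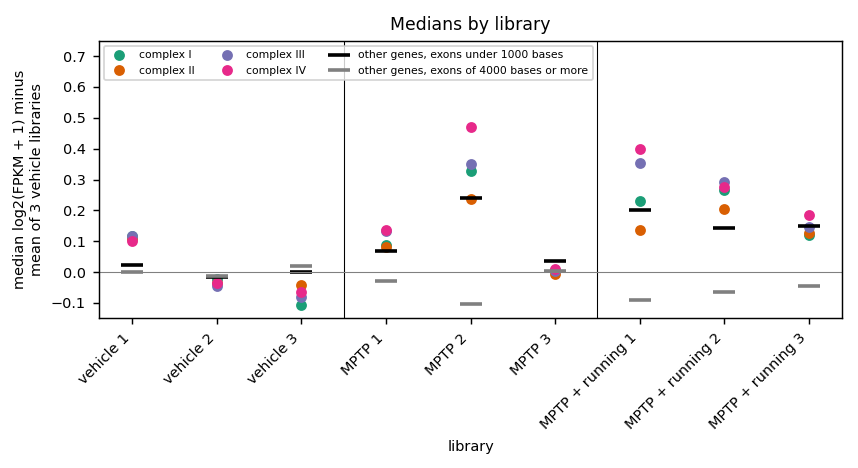
Median log2(FPKM + 1) relative to the mean of the 3 vehicle libraries, for each complex (points) and for other protein-coding genes of short or long total exon length (bars), in each library. The complexes move together. MPTP replicate 2 and the 3 running libraries are high both for the complexes and for other genes with a total exon length under 1000 bases.

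Several other measures moved with these libraries. The 7 transcripts retained in the nucleus, listed to follow RNA quality (Malat1, Meg3 and others, 1 of them under 1 FPKM on average and none at 0 in every library), summed to 408.6 to 466.4 FPKM in vehicle, to 431.3, 281.9 and 442.9 FPKM in MPTP replicates 1, 2 and 3, and to 289.0 to 343.0 FPKM in running libraries. The 4 libraries with the highest members' medians were the 4 with the lowest such sums. The 9 choroid plexus markers, all detected, summed to 39.1 to 344.1 FPKM in vehicle, 958.1 to 2077 FPKM in MPTP and 22.3 to 952.7 FPKM in running libraries, and all 9 had a higher mean in MPTP than in vehicle. Within the MPTP group, replicate 2 had the lowest choroid plexus sum and the highest members' median. The 5 red blood cell markers summed to 50.9 to 437.3, 31.4 to 54.1 and 10.8 to 45.5 FPKM, and all 5 were lower in running than in vehicle libraries. The 8 markers of skeletal and heart muscle, tissues rich in mitochondria, summed to 3.07 to 6.25 FPKM over all libraries, with 7 of 8 under 1 FPKM on average. The 9 neuronal markers summed to 1158 to 1439, 1220 to 1541 and 1263 to 1733 FPKM, with overlap. Of these, 6 of 9 were higher for MPTP and 7 of 9 for running against vehicle. In both MPTP groups replicate 2 had the highest neuronal sum and the highest members' median, and replicate 3 the lowest of both. In vehicle, the highest neuronal sum was that of replicate 2 and the highest median that of replicate 1. The 7 microglial markers summed to 93.6 to 112.0, 103.7 to 134.1 and 96.8 to 114.6 FPKM, with 6, then 5, higher against vehicle. The 6 endothelial markers summed to 52.7 to 57.6, 60.7 to 65.0 and 44.2 to 57.4 FPKM. The 6 thalamus markers summed to 17.6 to 109.5, 12.5 to 87.6 and 14.3 to 55.1 FPKM, and 0 of 6 had a higher mean in either MPTP group than in vehicle. The 7 oligodendrocyte markers summed to 1157 to 1821, 1088 to 1637 and 1079 to 1917 FPKM, with 1 of 7 higher for MPTP and 2 of 7 for running against vehicle. The part of nuclear RNA, choroid plexus, endothelium, blood, neurons, microglia, thalamus and oligodendrocytes in the members' values was not tested.

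Members varied together from library to library. Over the 9 libraries the correlation of a member with the mean of all other members had a median of 0.88 and exceeded 0.7 for 49 of 59 genes. After the group means were removed the median was 0.83, with 45 above 0.7, so the members also varied together within groups. These are descriptions of points that share library, depth and scaling. Cox7c followed the other members most closely (0.98), and Ndufa4 nearly as closely (0.97). Sdha followed them least (0.11), after which came Ndufb10 (0.38), Ndufb5 (0.45) and Ndufb2 (0.46).

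The sequence before the RefSeq start of members was searched for letters known from respiratory chain promoters. Stretches are shown from members with the motif of NRF1 (nuclear respiratory factor 1) or of the ETS family, which includes GABPA. Both factors are known regulators of respiratory chain genes. RefSeq promoter windows (GRCm38.p6) matched 49 of 59 members. No entry was matched for Cox4i1, Cox6c, Cyc1, Ndufa2, Ndufb9, Ndufs1, Sdhc, Uqcrb, Uqcrc2 and Uqcrq. In the 250 bases upstream of the start, on either strand, the NRF1 letters GCGCATGCG occurred in 3 of 49 members (6.12%) and in 1.64% of 27025 genes. A gene was counted if any of its promoter windows held the letters. Letters CCGGAAG, for the ETS family, occurred in 8 members (16.3%) and in 7.83% of these genes. AANATGGCG, for YY1, occurred in 2 members (4.08% against 1.29%), TNAAGGTCA, for the estrogen-related receptors, in 1 (2.04% against 1.3%), and GGGGCGG, for the SP family, in 11 (22.4% against 23.2%). The letters do not contain one another, although Cox6a1 held both of the first 2 motifs. Stretches of 30 bases around the match follow, from 5′ to 3′ on the strand of the gene, with the matched letters in capitals. The NRF1 stretches lie at chr5:115349101-115349130 (Cox6a1, minus strand), chr17:56717691-56717720 (Ndufa11, plus strand) and chr2:36049339-36049368 (Ndufa8, minus strand).
Cox6a1: caggaacgggGCGCATGCGCgctctcgctc
Ndufa11: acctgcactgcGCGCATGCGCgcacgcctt
Ndufa8: gcgcttgcgcgtcgctggagaCGCATGCGC
The ETS stretches of 4 members described above lie at chr9:50603878-50603907 (Sdhd), chr10:80406870-80406899 (Uqcr11), chr4:116075071-116075100 (Uqcrh) and chr7:30626125-30626154 (Cox6b1), all on the minus strand.
Sdhd: accgtctcctgcCTTCCGGttcacgcttca
Uqcr11: tttctctcctccCCGGAAGtagatgtcaat
Uqcrh: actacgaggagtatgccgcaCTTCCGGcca
Cox6b1: ctcctctcgcagCTTCCGGccagtcggaat
A match is a description of letters and not of binding. The stretches of Cox6a1, Ndufa8, Uqcrh and Cox6b1 overlap an exon annotated in GENCODE M21, of the same or another gene. That of Ndufa8 lies wholly within the annotated gene. Of the members with a match, Cox6a1, Cox6b1, Ndufa8, Ndufa11, Sdhd and Uqcr11 were among the 30 of all 59 members that were higher in every running library than in every vehicle library. For Ndufb6, Ndufb7, Ndufs3 and Uqcrh, which also hold a match, these groups overlapped. Ndufa3, Ndufa5 and Uqcr10, which hold neither motif in this window, were likewise higher in every running library than in every vehicle library.

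The members are short genes, and short genes differed in the same direction. Total exon length had a median of 1495 bases in the members (419 to 8086, 38 of 59 under 2000) and of 4491 bases in all protein-coding genes tested. Other protein-coding genes were classed by total exon length. For MPTP against vehicle, their median log2 fold change was 0.13 under 1000 bases, 0.090 from 1000 to under 2000, 0.037 from 2000 to under 4000 and -0.045 for 4000 and more. Members of the same classes had medians of 0.19, 0.18, 0.13 and 0.026. For running against vehicle the other genes had 0.18, 0.077, 0.017 and -0.065, and the members 0.25, 0.26, 0.15 and 0.087. Members thus lay above other genes of their length class in each of the 4 classes and both comparisons. Running against MPTP gave 0.022, 0.00096, -0.018 and -0.015 for other genes and 0.11, 0.069, 0.050 and -0.0018 for members. Among the members themselves, log2 fold change and log10 exon length had a correlation of -0.53 for MPTP and -0.60 for running against vehicle (59 genes, which share libraries). The long members Sdha (4126 bases), Ndufs1 (8086 bases) and Ndufab1 (6883 bases) were among those with the smallest differences for MPTP against vehicle, whereas Ndufab1 was at 0.16 for running against vehicle. Other long members, Uqcrc1 (4135 bases) and Ndufb7 (4522 bases), were at 0.15 and 0.13 for MPTP against vehicle, near the members' median of 0.14. With the trend over exon length removed from each library, a step added after the data were seen, the medians were 0.11, 0.077 and 0.18 over the 3 comparisons, with 59, 54 and 58 members higher and none past the adjusted test.

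**Figure D5:**
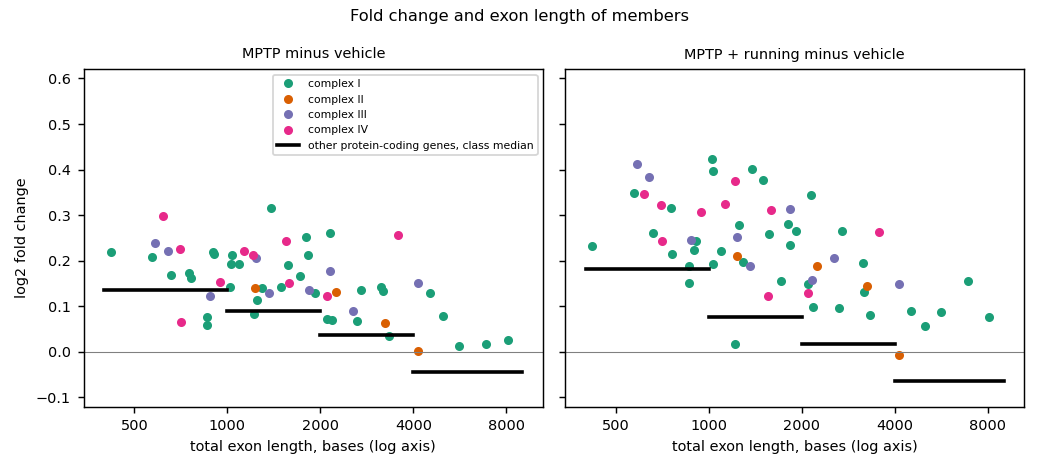
Log2 fold change against total exon length (log axis) for the 59 members by complex, with the medians of other protein-coding genes in 4 length classes as black bars. Members of short total exon length lie highest, and most members lie above the bar of their class.

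Among the pathway's other genes, subunits of the enzyme that makes ATP lay in the same direction. The 15 tested subunits of ATP synthase (complex V) were all higher in the MPTP than in the vehicle group (median 0.16) and all higher in running than in vehicle libraries (median 0.27). For MPTP, 11 of 15 were higher without MPTP replicate 2 (median 0.061), and 14 with the same FPKM sum (median 0.092). Atp5j2, of its membrane part, was at 20.7, 16.5 and 17.8 FPKM in vehicle, 22.5, 33.9 and 23.0 FPKM in MPTP and 32.4, 33.9 and 22.7 FPKM in running libraries (running against vehicle 0.65, SE 0.20, limma unadjusted p 0.0093, adjusted p 0.7532). Atp5o, of the stalk, was 0.30 higher in MPTP than in vehicle libraries (unadjusted p 0.030, adjusted p 0.9915). The 11 subunits of complexes I, III and IV made from the mitochondrial genome were higher in 10 cases for MPTP against vehicle (median 0.12) and in 4 for running against MPTP (median -0.024). For MPTP against vehicle the count was 8 of 11 (median 0.046) with the same FPKM sum and 6 of 11 (median 0.033) after quantile normalization. Against vehicle, 9 were higher in running libraries (median 0.10), but 7 of 11 (median 0.016) with the same FPKM sum and 5 of 11, with a median near 0, after quantile normalization. Cycs, which encodes the cytochrome c that links complexes III and IV, was 0.18 and 0.28 higher in MPTP and in running than in vehicle libraries.

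Other mitochondrial genes differed less. For MPTP against vehicle, all 15 genes of the citric acid cycle had positive fold changes (median 0.068), but 7 of 15, with a median of -0.0088, after rescaling to the same FPKM sum. Among 19 membrane and import proteins 17 were higher (median 0.050), and 7 after that rescaling (median -0.026). Without MPTP replicate 2 these medians were 0.043 and 0.029. The 16 regulators of mitochondrial biogenesis, including Ppargc1a, Nrf1 and Tfam, had medians of -0.028, -0.0034 and -0.053 over the 3 comparisons, with 6, 7 and 7 higher. Of 42 assembly factors 30 had positive fold changes for MPTP against vehicle (median 0.082), but 21 with the same FPKM sum (median 0.010) and 27 without MPTP replicate 2 (median 0.023). Of those with the smallest p, Uqcc1, an assembly factor of complex III, was at 11.4, 9.61 and 9.09 FPKM in vehicle and at 4.83, 4.66 and 7.51 FPKM in MPTP libraries (log2 fold change -0.75, SE 0.19, limma unadjusted p 0.0036, adjusted p 0.7832), and Coa7, an assembly factor of complex IV, at 1.03, 1.51 and 1.09 against 2.78, 3.66 and 2.58 FPKM (log2 fold change 0.86, unadjusted p 0.0075, adjusted p 0.8681). Both sets of values were without overlap. The 14 genes of ubiquinone synthesis and other electron carriers had medians of 0.056, 0.0084 and 0.070, and 9 tissue isoforms and supercomplex factors 0.11, -0.0044 and 0.10. With the same FPKM sum the medians for MPTP and for running against vehicle were -0.091 and -0.11 for the regulators, and 0.056 and 0.019 for the isoforms and supercomplex factors. Of the 14 carriers, 7 were then higher in both comparisons. Mitochondrial ribosomal proteins were higher in 64 of 75 cases for MPTP against vehicle (median 0.10), in 50 with the same FPKM sum (median 0.028) and in 51 without MPTP replicate 2 (median 0.043). Cytosolic ribosomal proteins, which are no part of the mitochondrion, were higher in 70 of 73 cases (median 0.19) and in 73 of 73 for running against vehicle (median 0.22), beside members' medians of 0.14 and 0.22. Their medians were 0.11 and 0.14 with the same FPKM sum, and that for MPTP was 0.084 without MPTP replicate 2. No gene of these lists passed the adjusted limma test in any comparison.

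Some values are uncertain because their reads can belong to another gene. Processed pseudogenes at least 95% identical over at least 200 bases were found for 11 members. The largest share was that of Ndufb4, at a mean of 12.5 FPKM, whose copy Ndufb4c matched over 390 bases at 100% and was listed at 33.7 FPKM. Ndufa12 and its copy Gm15920 were at 42.6 and 10.8 FPKM, Ndufs5 and BC002163 at 64.2 and 12.8 FPKM, and Ndufab1 and Gm4459 at 5.82 and 3.30 FPKM. In addition 20 members shared exonic bases with another gene, mostly on the opposite strand, such as Uqcrc2 with Pdzd9 (504 bases), Cox6c with Vps13b (250 bases) and Cox4i1 with Emc8 (154 bases). The sources used here do not say whether the counting used strand.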

How the data were processed

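RNA was sequenced from 9 substantia nigra libraries, 3 each of vehicle, MPTP and MPTP with running. The authors deposited 1 table of FPKM per gene, used as given. Per the submitters' processing notes, bcl2fastq, HTSeq and DESeq2 were used on the mouse build GRCm38. The aligner, the tool behind the FPKM and the strandedness of counting were not given in the sources used here. Symbols and exon lengths came from GENCODE M21 (55154 genes matched, 181 not).

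The 15997 genes whose mean reached 0.5 FPKM were fitted with limma 3.58.1 (R 4.3.3) on log2(FPKM + 1) with a mean-variance trend. A single model of 3 group means over 9 libraries (residual degrees of freedom 6, prior 2.68) gave the 3 contrasts. Two-sided p were adjusted by Benjamini-Hochberg over all genes, with a threshold of 0.05. On this scale the fold change of a low gene is understated. The fit was also run on simulated data with independent genes and larger fold changes than the members had. That run therefore does not describe the fit for the members, which varied together. Members, lists and rules were chosen with earlier results of these data known. The symbols Atp5pb and Atp5md had no match.

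Named genes were those with the smallest p of each complex per comparison (6, 2, 3 and 3 for complexes I to IV), those with groups that do not overlap for MPTP against vehicle or running against MPTP, the highest and lowest mean of each complex, core subunits chosen by role, and up to 2 genes of each list. In the fragment estimate, values within 2% of a whole step made up 39.8% to 41.5% of low values, so no count test was run. Copies were sought with BLAST 2.17.0. Replicate numbers carry no stated meaning. Libraries with the same number deviated together weakly in MPTP and vehicle (correlations 0.251, 0.33 and 0.105). In the pairs with running libraries the signs were mixed (-0.339, -0.134 and 0.247 against MPTP, -0.265, 0.00692 and 0.241 against vehicle). Libraries with different numbers were not compared, so these values cannot establish a pairing, and the main fit used none. Alternatives changed the filter, pseudocount, scaling, variance model, weights, replicate block and libraries, and, after the data were seen, the length trend.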

Additional observations from a re-analysis of the deposited data

How the results depend on the processing

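Over 21 alternatives for each of 3 comparisons, the count of members past the threshold was 0 in all 63 fits, with a smallest adjusted p of 0.3888 by limma. At most 31 members had an unadjusted p under 0.05 (running against vehicle without MPTP replicate 2, beside 1477 of all 15997 genes). The members' median log2 fold change was above 0 in all 21 alternatives of each comparison, from 0.057 to 0.22 for MPTP against vehicle, 0.010 to 0.15 for running against MPTP and 0.14 to 0.27 for running against vehicle. Rescaling every library to the same FPKM sum moved the median of all genes from -0.022 to -0.086 for running against vehicle and left 54 of 59 members higher. With the replicate block, 3, 0 and 19 members had an unadjusted p under 0.05 in the 3 comparisons, beside 719, 672 and 1085 of all 15997 genes. In that fit 0 members passed, and 3 genes in all passed for MPTP against vehicle, with no other call changed. Over all genes, 2 passed for MPTP against vehicle, and 0 did in a fit of those 2 groups alone. For running against MPTP, 0 passed, against 3 with no filter on low values, 1 with a mean of at least 5 FPKM, 1 with the same FPKM sum and 1 with array weights. Leaving out 1 library gave 0 to 32 genes for MPTP against vehicle, 0 to 25 for running against MPTP and 0 to 2 for running against vehicle, and the highest counts of the first 2 came without MPTP replicate 1. Members without overlap between groups numbered 3 for running against MPTP with the length trend removed. With 1 library left out, which makes such a gap more frequent in all genes, they numbered 6 to 32 for MPTP against vehicle (32 without vehicle replicate 1, against 11.4% of all genes, and 24 without MPTP replicate 3), 1 to 28 for running against MPTP (28 without MPTP replicate 2, against 9.22%) and 30 to 49 for running against vehicle (49 without vehicle replicate 1). The cause of these shifts was not tested. Where no share of all genes stands beside such a count, it cannot be set against the background. Each group held 3 libraries, and the depth behind each FPKM is an estimate.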
